A study of Mus musculus with 6 samples.

Results

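Gene expression of 32 genes that build or regulate the sodium, calcium and potassium channels of heart muscle, with a few genes of ion pumps and exchangers, was examined in cardiac ventricles of mice that carry extra miR-499. The genes were taken from a fixed list that was chosen with earlier results of these data known. Each was represented by the probe set that is paired with exactly 1 gene symbol and has the highest mean log2 value over all mice. Of the 32 listed genes, 31 were measured in this way among 19938 named genes of the array, and *Scn4a* was not analysed here. The measured genes comprise 2 sodium channel genes, 6 calcium channel genes, 10 voltage-gated potassium channel genes, 7 inward rectifier and background potassium channel genes, 3 pump and exchanger genes and 3 genes of Trpm and chloride channels.

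The ventricles came from 3 TG-17 mice, a transgenic line in which the cardiomyocyte promoter of *Myh6* drives miR-499, and from 3 wild-type littermates (WT), all at postnatal day 17. TG-17 is 1 line on the FVB/NCrl background with mildly enlarged heart muscle cells and no overt cardiac dysfunction, chosen by the authors to keep effects of heart failure out of the comparison. RNA of each mouse was hybridised to 1 Affymetrix mouse gene array, and the authors summarised the signal as a log2 value for each probe set with RMA, which removes background, aligns the arrays by quantiles and combines probes. A log2 difference of 1 is a doubling, all differences are TG-17 minus WT, and a level on this array cannot be set against that of another probe set.

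The action potential of a heart cell is shaped by these proteins in sequence. Sodium channels give the fast upstroke, L-type calcium channels carry the current of the plateau that triggers contraction, and potassium channels bring the membrane back to rest. In the mouse ventricle repolarization is fast and rests mainly on transient outward and rapidly activating voltage-gated potassium currents, while the inward rectifier holds the resting potential. The sodium-calcium exchanger and the sodium pump restore the ion gradients.

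The transgene was checked first. The probe set of *Mir499* had log2 values of 5.48, 5.34 and 5.68 in WT and 9.31, 9.33 and 8.87 in TG-17, a 12.7-fold difference (log2 fold change 3.67, SE 0.15, limma adjusted p = 0.00772). The 3 TG-17 mice were far above the 3 WT mice. The mature microRNA is shown because it is the agent that sets the groups apart, and its seed, bases 2 to 8, is in capitals (RefSeq, GRCm38.p6, chr2:155622893-155622913, plus strand).
miR-499-5p: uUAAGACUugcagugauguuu

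Over the whole array, medians of the log2 values were 6.89 to 6.95 and Pearson's r between arrays was 0.990 to 0.994 over the probe sets, as a description. No mouse stood apart. Of 10 markers of ventricular heart muscle, 0 differed at an unadjusted limma p under 0.05, and their summed level was 16.99 to 17.01 in WT and 16.99 to 17.02 in TG-17 (log2 of the summed linear values). Markers of atrial muscle were lower in TG-17, with 6 of 9 at an unadjusted p under 0.05 (*Myl4*, *Myl7*, *Nppa*, *Sln*, *Gja5* and *Dkk3*) and summed levels of 12.09 to 12.13 against 12.30 to 12.53 in WT. The 2 atrial myosin light chains, *Myl4* at -0.66 and *Myl7* at -0.64, also had a B above 0, the looser cut-off (B is limma's log odds that a probe set differs, for a prior share of 0.01). Of 9 conduction system markers, *Tbx3* and *Smoc2* were higher and *Cntn2*, *Gja5* and *Vsnl1* lower at that p. The channel gene *Hcn4*, which marks pacemaker cells, was at -0.0080. Of 10 smooth muscle and pericyte markers, 7 had a lower and 3 a higher mean in TG-17, and *Acta2*, *Myh11* and *Cnn1* were lower at that p. Without passing it, *Rgs5* at 0.092 and *Des* at 0.12 were above WT in all TG-17 mice. *Pdgfrb* at -0.075 was below WT in all of them (these 3 were named after their values were seen). The summed levels of the 10 markers were 14.01 to 14.04 in TG-17 and 14.05 to 14.12 in WT. Of 10 skeletal muscle markers 3 were lower, and of 9 markers of neurons and glia, 8 of them at or under the level of silent genes, 3 were lower. Of 9 leukocyte markers 1 was higher and 1 lower, and 0 of 10 fibroblast and 0 of 10 endothelial markers differed at that p. In RNA of whole ventricles, fewer cells of a type and less RNA per cell cannot be told apart.

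No channel gene passed a test that corrects for the number of probe sets. At B above 0, 0 of the 31 genes were called against 0.341% of all named genes, and at an adjusted p under 0.05, 0 were called against 0.01% of all named genes. At an unadjusted p under 0.05 there were 6 of the 31. Of these, 2 were higher in TG-17, which is 6.45% against 6.65% of all named genes, and 4 were lower, which is 12.9% against 8.76%. The 2 higher genes were *Kcna5* and *Kcnj5* and the 4 lower genes were *Kcnv2*, *Kcnj2*, *Kcnj3* and *Cacna1g*. Of the 6, 5 are potassium channel genes, as are 17 of the 31 measured genes. The smallest adjusted p of the 6 was 0.249 and the largest 0.293 (limma, Benjamini-Hochberg). The split of 2 higher and 4 lower was 6 and 2 when each array was centred on its median. It was 1 and 7 after a second quantile normalization, so the direction of the small differences as a group depends on the scaling. The shares of all named genes were not taken under these scalings.

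The members as a group were centred close to 0. The median log2 fold change was -0.011 for the 31 genes and -0.018 for all named genes, and 15 genes had a higher and 16 a lower mean in TG-17. The median size of the difference, regardless of sign, was 0.10 for the channel genes and 0.083 for all named genes. All TG-17 mice were above all WT mice in 6 genes, which is 19.4% against 12.2% of all named genes, and below them in 9 genes, which is 29.0% against 13.6%. These shares are descriptions, since the genes share the same 6 mice and the list was chosen with earlier results of these data known.

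The precision bounds what could have been missed. The 95% interval of the log2 fold change reached a median of 0.15 to either side of the estimate, from 0.11 to 0.38 by gene. For 28 of the 31 genes the whole interval lay within a 1.5-fold difference in either direction, and for 23 genes it lay within 1.25-fold. Of the 31 genes, 27 had a mean above 6.25, the 95th percentile of 1258 probe sets of odorant, pheromone, taste and trace amine receptors taken here as silent genes, and *Scn3b*, *Cacnb2*, *Kcna4* and *Kcne1* did not. The signal of these 4 genes was near that of silent genes, so a difference in them was hard to detect on this array.

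**Figure D1:**
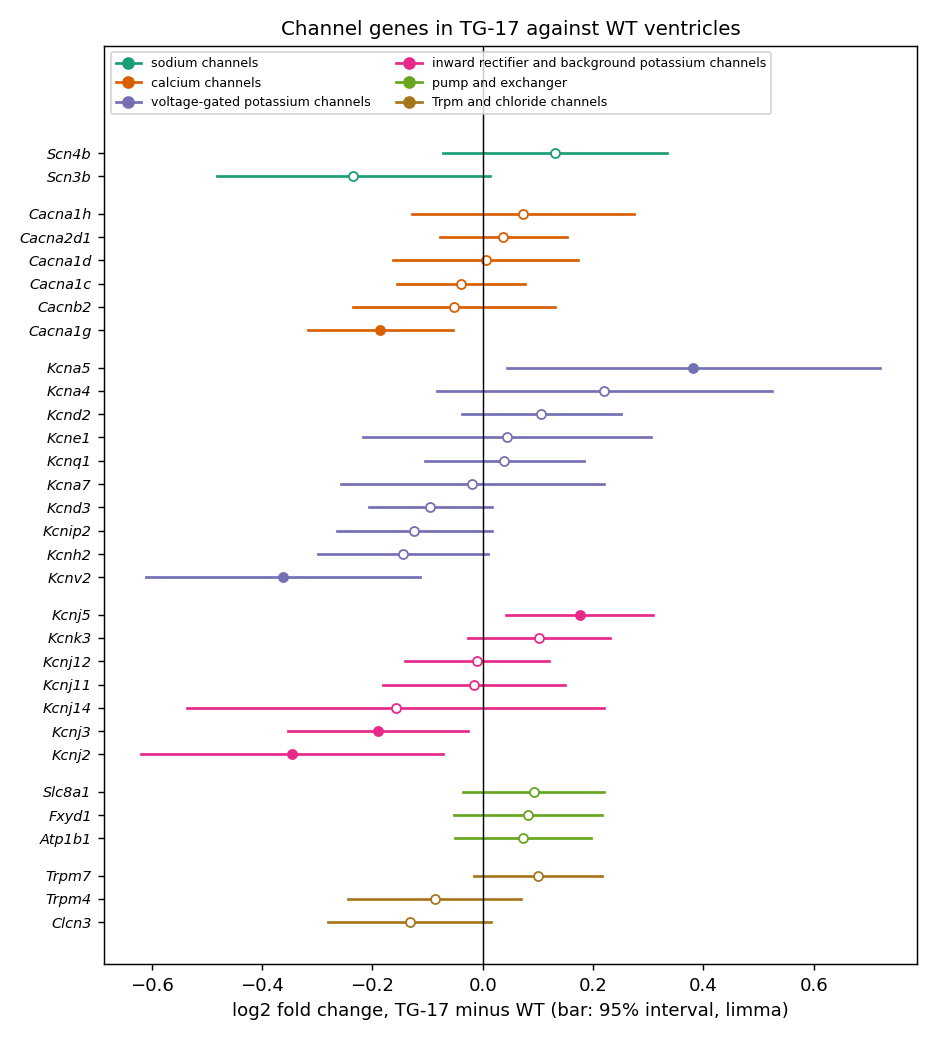
Log2 fold change of each measured channel gene (x axis, TG-17 minus WT, n = 3 mice per group) with its 95% interval from limma, coloured by subgroup, with filled points at an unadjusted p under 0.05. The 6 filled genes span -0.36 for *Kcnv2* to 0.38 for *Kcna5*, and none passed an adjusted p under 0.05.

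**Figure D2:**
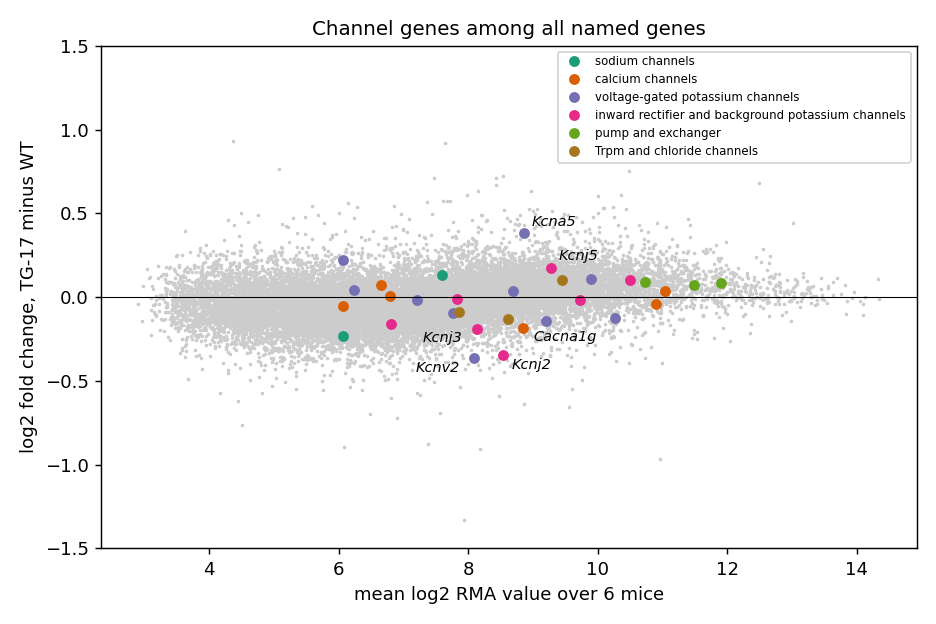
Mean log2 value over 6 mice (x axis) against the log2 fold change (y axis, TG-17 minus WT) of every named gene in grey, with the channel genes coloured by subgroup and *Mir499* left out because it lies beyond the y axis. The channel genes lie within the spread of the other genes, and the 6 labelled ones are those at an unadjusted p under 0.05.

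The voltage-gated potassium channels, which carry the transient outward and delayed rectifier currents, held both the highest and the lowest log2 fold change of the 31 genes. *Kcna5* encodes Kv1.5, the pore of an ultrarapid delayed rectifier. Its log2 values were 8.36, 8.83 and 8.84 in WT and 9.01, 9.02 and 9.14 in TG-17. The groups did not overlap, and WT replicate 1 was well below the other WT mice. The log2 fold change was 0.38 (SE 0.14, 1.30-fold, unadjusted p = 0.0324, limma adjusted p = 0.293), and it was 0.22 without WT replicate 1.

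*Kcnv2* encodes Kv8.2, a silent subunit that alters Kv2 channels. Its log2 values were 8.20, 8.43 and 8.18 in WT and 7.74, 7.97 and 8.01 in TG-17, with no overlap. The log2 fold change was -0.36 (SE 0.10, unadjusted p = 0.0115, limma adjusted p = 0.249). It stayed at an unadjusted p under 0.05 in all 16 settings in which it was fitted, the only one of the 6 genes to do so, and *Kcna5* stayed there in 12.

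The transient outward current is built from Kv4 pores and the accessory protein KChIP2. *Kcnd2*, the Kv4.2 pore, had values of 9.88, 9.84 and 9.84 in WT and 9.87, 9.97 and 10.03 in TG-17, and 1 TG-17 mouse lay among the WT mice. *Kcnd3*, the Kv4.3 pore, had values of 7.82, 7.80 and 7.84 in WT and 7.74, 7.71 and 7.73 in TG-17, so all TG-17 mice were lower, with a log2 fold change of -0.095 (SE 0.046, unadjusted p = 0.0833). *Kcnip2*, the KChIP2 subunit, had values of 10.33, 10.40 and 10.25 in WT and 10.18, 10.23 and 10.20 in TG-17, again without overlap, with a log2 fold change of -0.12 (SE 0.058, unadjusted p = 0.0742). *Kcna4*, the Kv1.4 pore of the slow transient outward current, was near the level of silent genes at 0.22 (SE 0.13), and its groups overlapped.

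Among the delayed rectifiers, *Kcnh2*, the ERG pore of the rapid component, was 9.34, 9.23 and 9.25 in WT and 9.21, 9.11 and 9.06 in TG-17, a log2 fold change of -0.14 (SE 0.064, unadjusted p = 0.0621). The lowest WT mouse was just above the highest TG-17 mouse. *Kcnq1*, the pore of the slow component, was at 0.039 and its accessory subunit *Kcne1* at 0.044, both with overlapping groups. *Kcna7*, a Kv1 pore, was at -0.019. Over the 10 genes the median was 0.0098, and *Kcna5* and *Kcnv2* were the ones with an unadjusted p under 0.05.

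The inward rectifiers did not share a direction. *Kcnj2* encodes Kir2.1, a principal pore of the current that holds the resting potential. Its log2 values were 8.89, 8.62 and 8.62 in WT and 8.55, 8.31 and 8.24 in TG-17, and the groups did not overlap. The log2 fold change was -0.35 (SE 0.11, unadjusted p = 0.0213, limma adjusted p = 0.269). Of the other Kir2 pores on the list, *Kcnj12* (Kir2.2) was at -0.011 (95% interval -0.14 to 0.12) and *Kcnj14* (Kir2.4) at -0.16 (95% interval -0.54 to 0.22), both with overlapping groups. The interval of *Kcnj14* includes the value of *Kcnj2*, and differences between the genes were not tested.

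*Kcnj3* and *Kcnj5* encode Kir3.1 and Kir3.4, the subunits that assemble into the acetylcholine-gated potassium channel best known from atrium and sinus node. *Kcnj3* was 8.27, 8.15 and 8.25 in WT and 7.99, 7.98 and 8.14 in TG-17, a log2 fold change of -0.19 (SE 0.067, unadjusted p = 0.0289, limma adjusted p = 0.285). *Kcnj5* was 9.25, 9.16 and 9.16 in WT and 9.40, 9.39 and 9.31 in TG-17, a log2 fold change of 0.18 (SE 0.055, unadjusted p = 0.0175, limma adjusted p = 0.263). Thus the partners were displaced in opposite directions, each without overlap of the groups.

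The difference of *Kcnj5* and *Kcnj3* within each array was therefore formed, a comparison chosen after the values were seen. It was 0.98, 1.01 and 0.91 in WT and 1.40, 1.41 and 1.18 in TG-17, so it widened by 0.37 in the means. No test is given, since the opposite shifts that led to this comparison fix its direction, and the values give no stoichiometry of the subunits. The atrial markers given above were lower in the same TG-17 mice, as *Kcnj3* was and *Kcnj5* was not, and their part in these values was not tested.

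*Kcnk3* encodes TASK-1, a background potassium channel. It was 10.40, 10.48 and 10.47 in WT and 10.60, 10.51 and 10.56 in TG-17, a log2 fold change of 0.10 (SE 0.053). All TG-17 mice were higher, by little. *Kcnj11*, the Kir6.2 pore of the ATP-sensitive potassium channel, was at -0.016 (SE 0.068) with overlapping groups. The median of the 7 inward rectifier and background genes was -0.016.

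**Figure D3:**
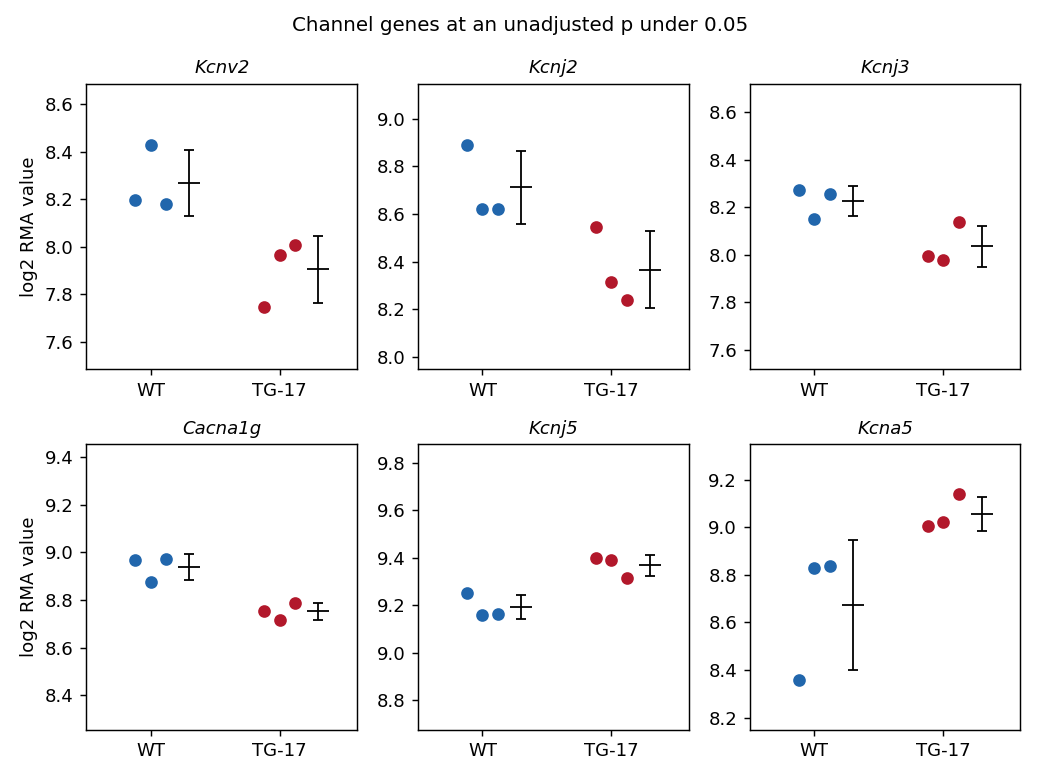
Log2 RMA values of the 6 channel genes at an unadjusted p under 0.05 in each WT (blue) and TG-17 (red) mouse, with the mean and SD of 3 mice beside the points, on y axes of equal span. The groups do not overlap in any of the 6 genes, and 1 low WT mouse widens the spread of *Kcna5*.

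Among calcium channels, the T-type gene *Cacna1g* (Cav3.1), whose current is prominent in pacemaker and immature heart cells, was 8.97, 8.87 and 8.97 in WT and 8.76, 8.72 and 8.79 in TG-17. All TG-17 mice were lower, and the log2 fold change was -0.19 (SE 0.054, unadjusted p = 0.0131, limma adjusted p = 0.252). It stayed at an unadjusted p under 0.05 without any 1 of the mice, and lost it when each array was centred on its median. The other T-type gene, *Cacna1h* (Cav3.2), was at 0.073 (SE 0.083) with overlapping groups. The mixed directions of the conduction system markers stand beside *Cacna1g*, and their part in it was not tested.

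The L-type channel of ventricular muscle showed no such difference. *Cacna1c*, its pore Cav1.2, was 10.96, 10.92 and 10.90 in WT and 10.89, 10.91 and 10.87 in TG-17. The log2 fold change of -0.040 had a 95% interval of -0.16 to 0.076. *Cacna2d1*, the alpha2-delta subunit that carries the pore to the membrane, was at 0.037 (95% interval -0.078 to 0.15). A further probe set of *Cacna2d1* was at 0.11 (SE 0.052), with all TG-17 mice higher and an unadjusted p of 0.0699. *Cacna1d* (Cav1.3) was at 0.0056 and the beta subunit *Cacnb2* at -0.052, the latter near the level of silent genes. The median of the 6 calcium channel genes was -0.017.

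For sodium channels the list held accessory beta subunits only, once *Scn4a* had dropped out. *Scn4b* was 7.47, 7.52 and 7.58 in WT and 7.62, 7.54 and 7.81 in TG-17, a log2 fold change of 0.13 (SE 0.084) with overlapping groups. *Scn3b* was 6.08, 6.31 and 6.15 in WT and 6.05, 6.03 and 5.77 in TG-17, all lower, at -0.23 (SE 0.10, unadjusted p = 0.0598). The level of *Scn3b* was that of silent genes, and the 6298 named genes at or under that level had a median of -0.056 against 0.00066 above it. The pair gives no common direction, and its median of -0.052 rests on opposite values.

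The 3 pump and exchanger genes among the members were higher by a similar small amount. The 18 further pump, exchanger and chloride genes measured had a median of -0.048, with 6 higher and 12 lower means in TG-17. *Slc8a1*, the sodium-calcium exchanger, was 10.65, 10.64 and 10.75 in WT and 10.79, 10.76 and 10.76 in TG-17, at 0.092 (SE 0.053). *Atp1b1*, the beta subunit of the sodium pump, was at 0.073 (SE 0.051), and *Fxyd1*, phospholemman, the small regulator of that pump, at 0.082 (SE 0.055). The groups did not overlap for *Slc8a1* and *Atp1b1* and did for *Fxyd1*, and 0 of the 3 genes had an unadjusted p under 0.05. A dimmer probe set of *Slc8a1* was at -0.069 (SE 0.068), so the probe sets of this gene disagree in sign.

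The median deviation of the 3 pump and exchanger genes from the WT mean was 0.080 to 0.087 in the TG-17 mice and -0.053 to 0.048 in the WT mice. The median over the genes was 0.082, the highest of the 6 subgroups, against -0.018 for all named genes, and it was 0.020 after a second quantile normalization. The subgroup medians of the sodium, calcium and potassium channel genes lay between -0.052 and 0.0098, and in each of these the TG-17 and WT mice overlapped. The difference between subgroups was not tested, since genes are not replicates.

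Of the remaining channels, *Trpm7*, a magnesium-permeable channel fused to a kinase, was 9.40, 9.42 and 9.38 in WT and 9.47, 9.49 and 9.53 in TG-17, all higher, at 0.10 (SE 0.048, unadjusted p = 0.0795). *Trpm4*, a calcium-activated monovalent cation channel, was at -0.087 (SE 0.065) with overlapping groups. *Clcn3*, a chloride-proton exchanger of endosomes, was 8.68, 8.71 and 8.63 in WT and 8.60, 8.58 and 8.45 in TG-17, all lower, at -0.13 (SE 0.061, unadjusted p = 0.0712). The median of the 3 genes was -0.087.

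**Figure D4:**
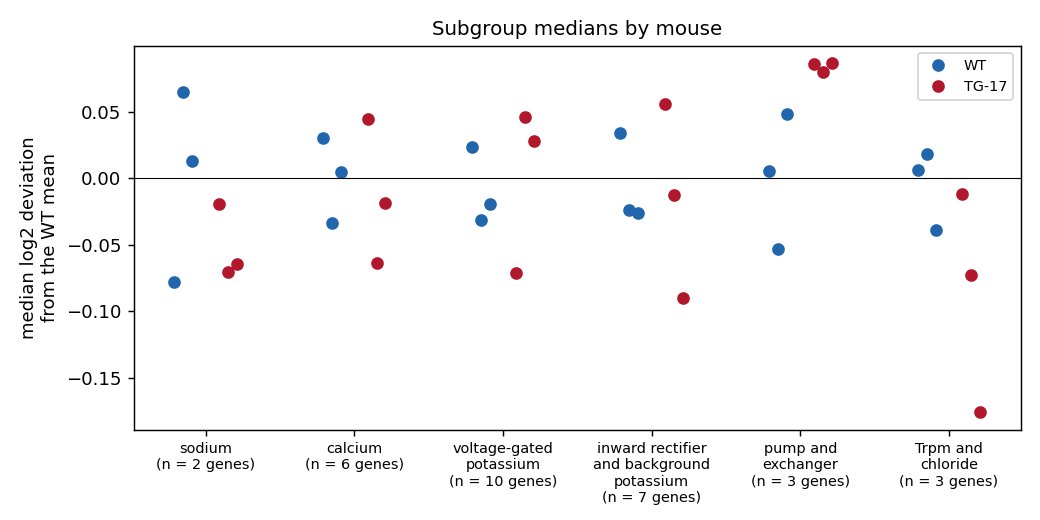
Median deviation of each subgroup's genes from their WT means (y axis, log2) in each WT (blue) and TG-17 (red) mouse, with the number of genes under each subgroup. Apart from the pump and exchanger genes, where the TG-17 mice lie at 0.080 to 0.087, the groups overlap in every subgroup.

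The wider channel families were listed as well, with 95 further genes of which 81 were measured. By B, 0 of them passed. Of the 81 genes, 5 were higher (6.17%) and 8 were lower (9.88%) with an unadjusted p under 0.05, close to the background shares of 6.65% and 8.76%. The median log2 fold change was -0.044. By family, 1 of 12 sodium channel genes was higher, 1 of 17 calcium channel genes lower, 2 of 34 potassium channel genes higher and 7 lower, and 2 of 18 pump, exchanger and chloride genes higher. The adjusted p of the 10 genes named here was 0.224 to 0.281 (limma, Benjamini-Hochberg).

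The smallest p values in these families included both sulfonylurea receptors, the regulatory subunits that join Kir6 pores in the ATP-sensitive potassium channel. *Abcc8* (SUR1) was 8.83, 8.79 and 8.72 in WT and 8.53, 8.52 and 8.52 in TG-17, a log2 fold change of -0.26 (SE 0.051, unadjusted p = 0.00205). *Abcc9* (SUR2) was 11.79, 11.72 and 11.71 in WT and 11.96, 12.01 and 11.97 in TG-17, a log2 fold change of 0.24 (SE 0.050, unadjusted p = 0.00292). The receptors were thus displaced in opposite directions without overlap.

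Both stayed at an unadjusted p under 0.05 in all 16 settings. Both were at B above 0 with an intensity trend and with an assumed share of 0.05. A larger assumed share raises B by itself. The share of all named genes at B above 0 was not taken under either alternative. The difference of *Abcc9* and *Abcc8* within each array, chosen after the values were seen, was 2.96, 2.93 and 2.99 in WT and 3.43, 3.49 and 3.45 in TG-17, wider by 0.49, again with no test for the same reason. The pores *Kcnj11* and *Kcnj8* were at -0.016 and -0.088, with overlapping groups. *Kcnj11* and *Abcc8* lie next to each other in the genome annotation. The atrial markers given above were lower in the same TG-17 mice, as *Abcc8* was and *Abcc9* was not. The part of atrial tissue in these values was not tested. *Abcc9* and *Kcnj8* are also used by smooth muscle and pericytes. Of the 10 markers of these cells, 7 had a lower and 3 a higher mean in TG-17, with a median of -0.12. *Acta2*, *Myh11* and *Cnn1* were lower, as were *Pdgfrb* at -0.075, *Cspg4* at -0.16 and *Notch3* at -0.040. Of this list, *Rgs5* at 0.092 and *Des* at 0.12 were above WT in all TG-17 mice, as *Abcc9* was. *Acta2*, *Myh11* and *Pdgfrb* were below WT in all of them. The part of these cells in the values was not tested.

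**Figure D5:**
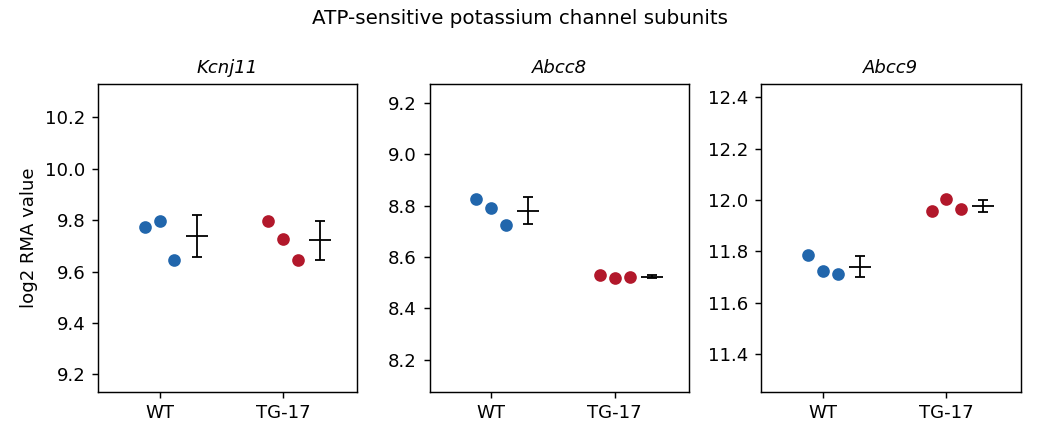
Log2 RMA values of the genes of the ATP-sensitive potassium channel, the pore *Kcnj11* and the receptors *Abcc8* and *Abcc9*, in each WT (blue) and TG-17 (red) mouse, with the mean and SD of 3 mice, on y axes of equal span. *Abcc8* is lower and *Abcc9* higher in all TG-17 mice, and *Kcnj11* overlaps.

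Of the other genes at an unadjusted p under 0.05 in these families, *Nedd4l*, a ubiquitin ligase that removes sodium channels from the membrane, was higher at 0.20 (SE 0.051), and *Ank2*, the ankyrin that anchors the exchanger and the pump, at 0.18 (SE 0.060). *Kcnn2*, a calcium-activated potassium channel, was at 0.23 (SE 0.077) and *Clcn6*, a chloride-proton exchanger, at 0.18 (SE 0.058). *Kcna2*, a Kv1 pore, was at -0.19 (SE 0.064) and *Cacng1*, a calcium channel gamma subunit best known from skeletal muscle, at -0.22 (SE 0.068). *Kcnj15* at -0.27 (SE 0.055) and *Kcnma1* at -0.34 (SE 0.12) were at or under the level of silent genes. Of these 8 genes *Nedd4l* and *Kcnj15* kept an unadjusted p under 0.05 in every setting run, *Clcn6* in 14 of 16, *Kcnn2* and *Cacng1* in 13, *Ank2* in 11, *Kcna2* in 10 and *Kcnma1* in 8 of 15. *Kcna1* and *Kcna6*, which lie close to *Kcna5* in the annotation, were at 0.13 and -0.060, and differences between these genes were not tested.

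Promoter sequence was available from RefSeq (GRCm38.p6) for 22 of the 31 measured genes, with 27 promoters of 250 bases before and 50 after the start. *Kcnv2* and *Cacna1g* had no entry. The 250 bases before the start of 4 of the 6 genes at an unadjusted p under 0.05 are shown, because these genes differ in direction, with each CG dinucleotide in capitals. *Kcna5* (chr6:126535556-126535805, minus strand) and *Kcnj5* (chr9:32344345-32344594, minus strand) were higher, and *Kcnj2* (chr11:111065914-111066163, plus strand) and *Kcnj3* (chr2:55435720-55435969, plus strand) were lower.
Kcna5: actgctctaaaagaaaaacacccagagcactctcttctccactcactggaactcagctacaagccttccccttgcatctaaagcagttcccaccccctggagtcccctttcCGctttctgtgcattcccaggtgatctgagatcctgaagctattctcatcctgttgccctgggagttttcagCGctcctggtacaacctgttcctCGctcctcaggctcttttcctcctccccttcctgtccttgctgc
Kcnj5: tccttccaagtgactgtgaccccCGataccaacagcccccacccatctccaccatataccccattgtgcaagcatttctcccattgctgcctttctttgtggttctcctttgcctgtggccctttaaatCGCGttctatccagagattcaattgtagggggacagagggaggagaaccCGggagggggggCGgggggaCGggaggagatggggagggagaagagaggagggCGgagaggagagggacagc
Kcnj2: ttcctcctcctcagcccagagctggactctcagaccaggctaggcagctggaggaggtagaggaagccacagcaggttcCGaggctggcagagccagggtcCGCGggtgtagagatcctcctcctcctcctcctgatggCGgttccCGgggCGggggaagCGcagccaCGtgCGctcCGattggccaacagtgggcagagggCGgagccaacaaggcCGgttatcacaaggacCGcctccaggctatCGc
Kcnj3: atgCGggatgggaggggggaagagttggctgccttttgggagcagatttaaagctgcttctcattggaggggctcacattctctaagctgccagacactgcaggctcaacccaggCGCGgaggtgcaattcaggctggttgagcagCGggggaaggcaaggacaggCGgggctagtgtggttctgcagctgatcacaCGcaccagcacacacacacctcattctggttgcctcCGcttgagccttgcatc

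These stretches held 3 CG dinucleotides in *Kcna5*, 7 in *Kcnj5*, 14 in *Kcnj2* and 7 in *Kcnj3*. Their content of G and C was 53.2%, 58.0%, 65.6% and 58.4% in the same order. The lower gene *Kcnj3* and the higher gene *Kcnj5* were almost equal in content, and 4 promoters allow no test. Over the 27 promoters the median was 63.7%, and over all 32851 promoters in the table it was 52.7%.

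Motifs were searched on both strands over the whole length of these promoters. The AP-1 motif TGANTCA occurred in 7.81% of all promoters and in 0 of the 22 genes, the GATA motif AGATAA in 11.2% and in *Slc8a1*, and the TATA motif TATAAA in 13.6% and in *Cacna1d* and *Fxyd1*. No motif contains another. The 4 promoters shown above held none of them, which says only that these letters are not in these windows.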

How the data were processed

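RNA of cardiac ventricles from 3 TG-17 and 3 WT mice at postnatal day 17 was hybridised to 1 array each. The values that the authors deposited are on the log2 scale, attributed to RMA in the submitters' notes, with the version not given in the sources used here. Groups came from the labels, the line from the paper. Probe sets were named through the platform annotation, with symbols updated by Entrez identifier through RefSeq (GRCm38.p6). All 35556 probe sets entered limma 3.58.1 in R 4.3.3 (lmFit, eBayes without trend, Benjamini-Hochberg adjustment), checked on simulated data. The cut-offs were an adjusted p under 0.05 and B above 0, as in the paper. Genes, channel families and marker lists were chosen with earlier results of these data known. Named were all members, up to 10 further channel genes with the smallest unadjusted p under 0.05, and markers. Alternatives covered scaling, filters, moderation, array weights, the replicate block and each mouse left out. The precision is limited by the number of arrays. Sites of the miR-499 seed in transcripts were not searched. One motif in the promoters is not reported here.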

Additional observations from a re-analysis of the deposited data

How the results depend on the processing

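In every alternative run, 0 of the 31 channel genes passed an adjusted p under 0.05 or, where it was computed, B above 0. Of 523 fits of a member in an alternative, 502 kept the direction and 21, in 8 genes with differences close to 0, turned it. Many of these fits could not turn it. Changes of moderation, trend, assumed share, replicate block or probe set filter leave a fold change as it is. The number at an unadjusted p under 0.05, 6 in all, was 12 with an intensity trend (5 higher, 7 lower) and 2 to 5 with a mouse left out (0 to 3 higher, 2 to 4 lower), lowest without TG-17 replicate 2. It was 6 higher and 2 lower with arrays centred on their medians and 1 higher and 7 lower after a second quantile normalization. For the further channel genes the count of 13 was 7 to 13 with a mouse left out, lowest without WT replicate 1 or TG-17 replicate 3, and 8 without WT replicate 3. At B above 0 it was 2 with an intensity trend (*Abcc8* and *Abcc9*) and 3 with an assumed share of 0.05 (also *Kcnj15*). These alternatives for the further genes were added after seeing the data. The shares of all named genes were taken in the main setting only, so counts under the alternatives have no background beside them.

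The median of the members moved from -0.011 to 0.040 with centred arrays and to between -0.029 and 0.020 with a mouse left out. Centring adds the same amount to every difference, and the median of all probe sets moved with it from -0.014 to 0.037. Centring gave subgroup medians of 0.034 (calcium), 0.061 (voltage-gated potassium) and 0.13 (pump and exchanger). The second quantile normalization gave -0.076 (inward rectifier and background) and 0.020 (pump and exchanger). A filter on dim probe sets gave 0.13 (sodium) and -0.057 (voltage-gated potassium). This filter changed no fold change but removed *Scn3b*, *Cacnb2*, *Kcna4* and *Kcne1*, so its sodium value is that of *Scn4b* alone. Leaving out a mouse gave -0.053 to 0.050 for voltage-gated potassium channels, lowest without WT replicate 2. Turned directions under centring were *Cacna1c* 0.011, *Kcna7* 0.032, *Kcnj11* 0.035 and *Kcnj12* 0.040, under the second quantile normalization *Cacnb2* 0.0055, *Cacna2d1* -0.038, *Kcna7* 0.019 and *Kcnj12* 0.0044, and with array weights *Cacna1d* -0.013. With a mouse left out the ranges were -0.029 to 0.067 for *Cacna1d*, -0.069 to 0.064 for *Kcna7*, -0.045 to 0.12 for *Kcne1*, -0.062 to 0.023 for *Kcnj11* and -0.044 to 0.013 for *Kcnj12*. Apart from the constant added by centring and the genes removed by the filter, the causes of these shifts were not tested.

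Of the 6 genes at an unadjusted p under 0.05, *Kcnv2* stayed there in 16 of 16 settings, *Cacna1g* in 15, *Kcna5* and *Kcnj2* in 12, and *Kcnj3* and *Kcnj5* in 11. *Kcna5* was above that p without any 1 of the TG-17 mice, *Kcnj2* without WT replicate 1 or TG-17 replicates 2 or 3, *Kcnj3* without WT replicates 1 or 3 or TG-17 replicates 1 or 2, and *Kcnj5* without WT replicates 2 or 3 or TG-17 replicates 1 or 2. Same-numbered mice showed little shared deviation (correlations of 0.024, -0.00044 and 0.057). Differently numbered mice were not compared, and whether the numbers pair the mice was not tested. With the replicate number as a block, 6 members were at an unadjusted p under 0.05, 0 were at B above 0, and 11 of the further genes were at that p.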
